A study of Mus musculus with 4 samples.

Results

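The genes described here encode membrane transporters of sugars, amino acids, peptides and related small solutes. They were taken as all probes of the array whose gene symbol starts with Slc1a, Slc2a, Slc3a, Slc5a, Slc6a, Slc7a, Slc15a, Slc16a, Slc36a, Slc38a or Slc43a, which gave 167 of 45281 probes and 99 of 30869 gene symbols. Total RNA came from small intestinal tumours of ApcMin/+ mice, aged 30 weeks and on the C57BL/6J strain. The Min allele truncates Apc, which restrains the Wnt pathway, and being a germline allele it is present in every pool. From each of 2 mice, 3 tumours of at most 2 mm (small) and 3 tumours of 4 to 5 mm (large) were pooled separately, and each of the 4 pools was hybridised to 1 Illumina bead array, which makes 2 arrays per size. No tumour-free tissue was analysed here, and a pool hides the spread between its 3 tumours.

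Nutrients enter an absorptive enterocyte through transporters of the apical brush border and leave it through others in the basolateral membrane. Sodium-coupled carriers of the Slc5 and Slc6 families take up glucose and neutral amino acids, the proton-coupled carriers of the Slc15 family take up short peptides, and the facilitative Slc2 carriers pass sugars along their gradient. Many Slc7 proteins are light chains that pair with a heavy chain of the Slc3 family to exchange amino acids. Proliferating cells use a partly different set, among them the glucose carrier Slc2a1 and the glutamine carrier Slc1a5. In these bulk pools, fewer cells of a type and less RNA per cell cannot be told apart.

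Of the 167 transporter probes, 59 were detected (detection p under 0.05) on all 4 arrays, 57 on none, and 20, 18 and 13 on 1, 2 and 3 arrays. The 90 probes detected on at least 2 arrays, from 63 genes, were tested together with all other such probes of the table (20214 in all). Bead signals of all transporter probes ran from 36.5 to 4296. Per array the bead standard error had a median of 5.56% to 6.37% of a transporter probe's signal, with a median of 38 to 40 beads behind it. Signals were background-corrected, quantile normalized and put on a log2 scale, which is the scale of every level and difference below unless a bead signal is named. A difference is large minus small, and where 2 differences are given together, that of mouse 1 comes first. The array least like the others was the small pool of mouse 2, with a Pearson r of 0.936 to 0.949 across the tested probes, which are not independent replicates, against 0.961 to 0.977 among the other arrays. Differences are therefore given for each mouse, since those of mouse 1 do not use that pool.

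Transporter probes lay lower in large than in small tumours more often than higher. Large tumours had the lower level in each mouse for 47 of the 90 tested probes (52.2%, beside 28.6% of all 20214 tested probes) and the higher level in each for 19 (21.1%, beside 29.0%). The mice went opposite ways for 24 (26.7%, beside 42.3%). A difference of at least 2-fold in each mouse was seen for 5 lower probes (5.56%, beside 0.816%) and 1 higher probe (1.11%, beside 0.792%). Some genes have several probes, so each was also counted once, by its brightest tested probe. Lower in both mice were 30 of 63 genes (47.6%, beside 26.7% of all 13906), and higher 15 (23.8%, beside 30.7%). At least 2-fold lower in each mouse were 3 genes (4.76%, beside 0.798%), and higher 1 (1.59%, beside 0.942%). A probe can pass the detection limit through the size in which it is bright, so the 59 probes detected on all 4 arrays were counted too. Of these, 33 (55.9%) were lower and 12 (20.3%) higher in both mice, beside 28.6% and 29.7% of all 16072 such probes. With no detection limit, 67 of all 167 transporter probes (40.1%) were lower and 41 (24.6%) higher in both mice, beside 26.7% and 26.9% of all 45281 probes. Both large pools lay below both small pools for 33 of the 90 probes (36.7%, beside 19.3% of all tested probes), and above them for 13 (14.4%, beside 20.8%). In mouse 1 alone 57 of the 90 probes were lower in the large pool (63.3%, beside 48.0%), and in mouse 2 alone 61 were (67.8%, beside 51.7%). The median difference of the 90 probes was -0.17 in mouse 1 and -0.25 in mouse 2, beside 0.02 and -0.03 over all tested probes.

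No probe of the array, and so no transporter, passed the limma test of large against small (Benjamini-Hochberg adjusted p under 0.05, background 0.0%). At an unadjusted limma p under 0.05 there were 17 lower and 3 higher transporter probes of 90 (18.9% and 3.33%), beside 4.11% lower and 3.63% higher over all tested probes. The 2 pools with the same number come from the same mouse, and with the mouse as a block in the limma fit 1 transporter probe passed (1.11%), Slc7a15, which was lower, beside 0.594% of all tested probes and 0.257% that were lower. The plot of the difference in mouse 1 against that in mouse 2 shows these counts point by point.

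**Figure D1:**
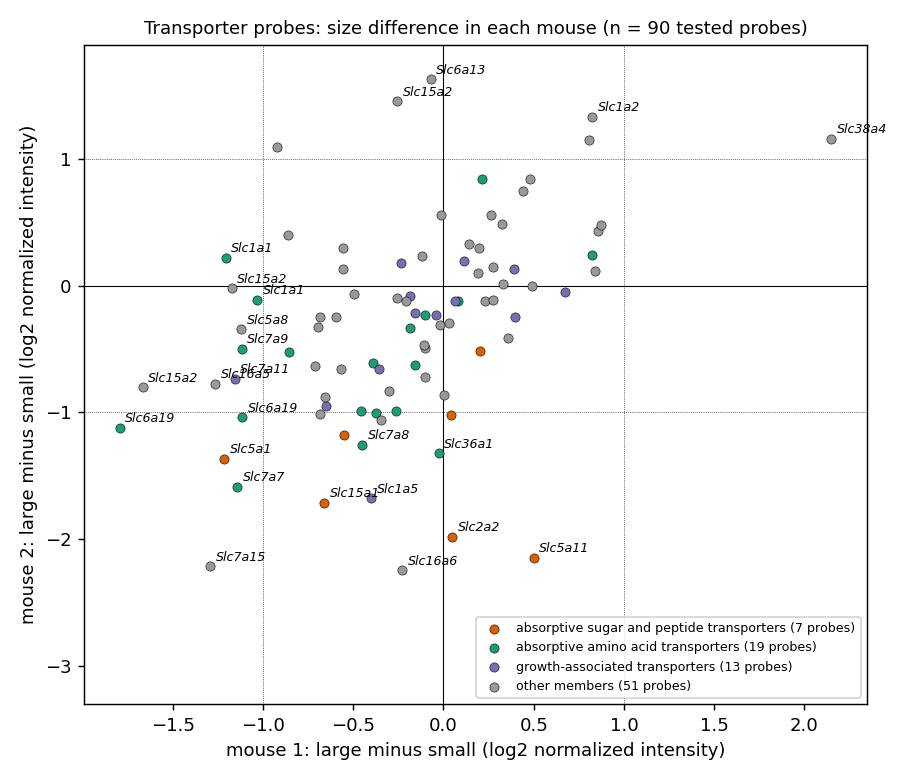
Large minus small (log2 normalized intensity) in mouse 1 (x axis) and mouse 2 (y axis), with 1 point for each of the 90 tested transporter probes, coloured by list; dotted lines mark a 2-fold difference. The lower left, where large tumours were lower in each mouse, holds 47 probes and the upper right 19; Slc38a4 alone lies beyond both 2-fold lines at the upper right.

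Among the sugar carriers of the brush border, Slc5a1, which encodes the sodium-glucose cotransporter SGLT1, lay lower in both large pools. Its bead signal was 812 in the small and 380.3 in the large pool of mouse 1, and 1243 and 455 in those of mouse 2. Both large pools were below both small pools, and the normalized level was 9.89 ± 0.27 for small and 8.60 ± 0.16 for large pools (SD, n = 2 each), a 2.45-fold lower level in large tumours. The difference was -1.22 (mouse 1) and -1.36 (mouse 2), and over both mice -1.29 (SE 0.30); it did not pass limma (adjusted p = 0.588), and leaving out 1 pool at a time gave -1.10 to -1.48. Slc5a9, a sodium-coupled carrier known for mannose, had levels of 7.47 and 6.93 in the small and large pools of mouse 1, and 7.57 and 6.39 in those of mouse 2. Its large pools were also both below its small pools, with differences of -0.55 and -1.18, and a second probe of the gene differed by 0.04 and -1.02.

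The promoter of Slc5a1 is shown because it belongs to the sugar carrier with the clearest difference, followed by those of the amino acid carriers Slc6a19 and Slc7a15, which had the lowest differences, and of Slc38a4, which had the highest. Each runs from 250 bases before to 50 bases after a start site in RefSeq, build GRCm38.p6, 5′ to 3′ on the gene's strand, and capitals mark the motifs named further on.
Slc5a1, chr5:33103969-33104268, strand +: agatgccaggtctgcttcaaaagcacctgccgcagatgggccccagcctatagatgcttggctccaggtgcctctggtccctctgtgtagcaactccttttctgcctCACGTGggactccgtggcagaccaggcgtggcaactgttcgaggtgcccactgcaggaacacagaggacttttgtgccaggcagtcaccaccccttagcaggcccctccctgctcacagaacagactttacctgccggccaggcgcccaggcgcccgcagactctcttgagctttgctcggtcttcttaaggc
Slc6a19, chr13:73692587-73692886, strand -: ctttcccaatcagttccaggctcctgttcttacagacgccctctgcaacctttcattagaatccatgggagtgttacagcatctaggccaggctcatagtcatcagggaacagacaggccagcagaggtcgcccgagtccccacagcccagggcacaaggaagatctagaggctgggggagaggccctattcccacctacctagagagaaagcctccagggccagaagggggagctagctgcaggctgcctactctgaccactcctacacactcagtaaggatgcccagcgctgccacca
Slc7a15, chr12:8599017-8599316, strand -: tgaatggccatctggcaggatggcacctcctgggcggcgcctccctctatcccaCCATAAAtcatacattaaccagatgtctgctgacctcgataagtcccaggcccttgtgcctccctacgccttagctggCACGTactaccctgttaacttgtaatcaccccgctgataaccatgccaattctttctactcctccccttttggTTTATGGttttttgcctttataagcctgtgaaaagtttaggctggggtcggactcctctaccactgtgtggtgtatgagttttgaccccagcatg
Slc38a4, chr15:97031164-97031463, strand -: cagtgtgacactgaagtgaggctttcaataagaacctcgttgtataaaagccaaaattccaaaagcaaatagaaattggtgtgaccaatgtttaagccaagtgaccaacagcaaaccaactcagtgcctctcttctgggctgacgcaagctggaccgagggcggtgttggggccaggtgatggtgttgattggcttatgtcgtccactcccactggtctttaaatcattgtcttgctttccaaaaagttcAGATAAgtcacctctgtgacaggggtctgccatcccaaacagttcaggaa
RefSeq gives more than 1 start site for Slc7a15 and Slc38a4, of which 1 is shown for each; it was picked after the motif search, and the promoters of their other start sites hold none of the motifs.

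Slc2a2, the basolateral glucose carrier GLUT2, was detected in mouse 2 only by its tested probe. Its bead signal was 51.7 in the small and 55.9 in the large pool of mouse 1, and 341 and 100.2 in those of mouse 2, and neither pool of mouse 1 was well above background. In mouse 2 the large pool lay 1.98 below the small pool on the log2 scale. Slc5a11, a sodium-coupled carrier of inositol, had a signal of 52.0 in the small and 67.8 in the large pool of mouse 1, and 188 and 66.6 in those of mouse 2. In the small pool of mouse 2 it stood out from the other 3 pools, so its mean difference (-0.82) rests on that pool and was 0.51 without it. Slc5a4a and Slc5a4b, which encode forms of the glucose-sensing protein SGLT3, were likewise brighter in mouse 2, with differences there of -0.52 and -0.86. In mouse 1 the measured difference of Slc5a4a was 0.20, with the small pool not well above background, and Slc5a4b was not well above background in either pool. For Slc2a5, the fructose carrier GLUT5, the probe was not well above background on any array. Of the 8 genes on the list of absorptive sugar and peptide transporters 6 were tested, 3 of them lower and 0 higher in both mice, with medians of -0.25 in mouse 1 and -1.54 in mouse 2. The 28.6% and 29.0% above are the shares over all probes; over all 13906 genes, each by its brightest tested probe, 26.7% were lower and 30.7% higher in both mice.

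Peptide carriers were lower or differed by mouse. Slc15a1 encodes PEPT1, the peptide carrier of the brush border, and its bead signal was 88.2 in the small and 71.3 in the large pool of mouse 1, and 128 and 60.2 in those of mouse 2. The large pool of mouse 2 was not well above background. The log2 difference in mouse 1 was -0.66, and in mouse 2 the difference was at most -1.45, a bound on an undetected pool. The mean difference was -1.19, and -0.65 with no background correction. Slc15a2, which encodes the related carrier PEPT2, had levels of 6.72 and 5.06 in the small and large pools of mouse 1, and 6.74 and 5.94 in those of mouse 2 by its brightest probe, with both large pools below both small pools. The difference of that probe was -1.23 over both mice and -0.78 with no background correction. Its other probes did not all run the same way: the second differed by -1.17 and -0.02, and the third, detected in mouse 2 only, by 1.45 there. Slc15a3, a lysosomal histidine and peptide carrier of immune cells, differed by -0.86 and 0.40, in opposite directions in the mice.

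Among carriers of neutral amino acids of the brush border, Slc6a19 lay lower in both large pools. It encodes B0AT1, the main sodium-coupled carrier of neutral amino acids in the intestine. Its bead signal was 573 in the small and 199 in the large pool of mouse 1, and 845 and 364 in those of mouse 2. Both large pools lay below both small pools, and the normalized level was 9.33 ± 0.23 for small and 7.87 ± 0.71 for large pools (SD, n = 2 each), 2.74-fold lower in large tumours. The difference was -1.79 (mouse 1) and -1.12 (mouse 2) (limma adjusted p = 0.588), and the second, dimmer probe gave -1.12 and -1.04. Slc6a18, a relative known best from kidney, differed by 0.08 and -0.12. The imino acid carrier Slc6a20b and the neutral and cationic amino acid carrier Slc6a14 were not detected on any array. Slc36a1, the proton-coupled carrier PAT1, had levels of 4.96 and 4.93 in the small and large pools of mouse 1, and 6.31 and 4.98 in those of mouse 2. Only the small pool of mouse 2 was raised, so the mean difference of -0.67 was 0.0021 without that pool.

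Slc7a15 encodes a carrier of aromatic amino acids that is active in mouse and is a light chain of the Slc7 family. It had the lowest difference of all transporter probes. Its bead signal was 96.9 in the small and 62.1 in the large pool of mouse 1, and 196 and 66.6 in those of mouse 2, and the large pool of mouse 1 was not well above background. Both large pools lay below both small pools. In mouse 2 the difference was -2.21 and in mouse 1 at most -1.15, a bound. Without a block its limma adjusted p was 0.588, and it fell in large tumours in the fit with the block (adjusted p = 0.0449, lower in 2 of 2 mice), with a mean difference of -1.75. With no background correction that mean was -1.04, a setting in which the block was not fitted.

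Slc7a9 encodes the light chain b0,+AT of the apical carrier of cystine and cationic amino acids. Its bead signal was 2629 in the small and 1182 in the large pool of mouse 1, and 2370.3 and 1658 in those of mouse 2 by the brightest probe. Both large pools were below both small pools for each of its 3 probes, whose mean differences ran from -0.81 to -0.62. The brightest differed by -1.12 (mouse 1) and -0.50 (mouse 2) (limma adjusted p = 0.605). Its heavy chain partner Slc3a1 is not analysed here.

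On the basolateral side, the light chain genes Slc7a7 and Slc7a8 lay lower in large tumours in each mouse. Slc7a7 encodes y+LAT1, which exports cationic amino acids. Its brightest probe had bead signals of 844 in the small and 664 in the large pool of mouse 1, and 1313 and 608 in those of mouse 2. All 3 probes had both large pools below both small pools, with differences of -0.37 and -1.0 for the brightest, -0.39 and -0.61 for the next and -1.14 and -1.59 for the dimmest. The dimmest had the smallest unadjusted limma p of all transporter probes, and its adjusted p was 0.569. Slc7a8, the neutral amino acid exchanger LAT2, differed by -0.45 (mouse 1) and -1.26 (mouse 2), and differed more between the mice, as given further on. Slc16a10, the aromatic amino acid carrier TAT1, differed by -0.19 and -0.33. Of the efflux carriers LAT3 and LAT4, Slc43a1 differed by 0.82 and 0.24 and Slc43a2, not well above background in large tumours, was at least 1.32-fold lower there (limma adjusted p = 0.642). With no background correction its mean difference went from -0.72 to -0.39.

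Slc1a1 encodes EAAC1, the carrier of glutamate and aspartate. Its levels were 8.95 and 7.74 in the small and large pools of mouse 1, and 7.43 and 7.65 in those of mouse 2. The brighter probe differed by -1.21 and 0.22 and the other by -1.03 and -0.11, so only mouse 1 showed a 2-fold difference. Over the list of absorptive amino acid transporters, 11 of 16 genes were tested. Of these, 8 were lower and 1 higher in both mice (beside 26.7% and 30.7% of all genes), with medians of -0.37 and -0.50. None of these 11 passed limma with or without the mouse as a block.

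**Figure D2:**
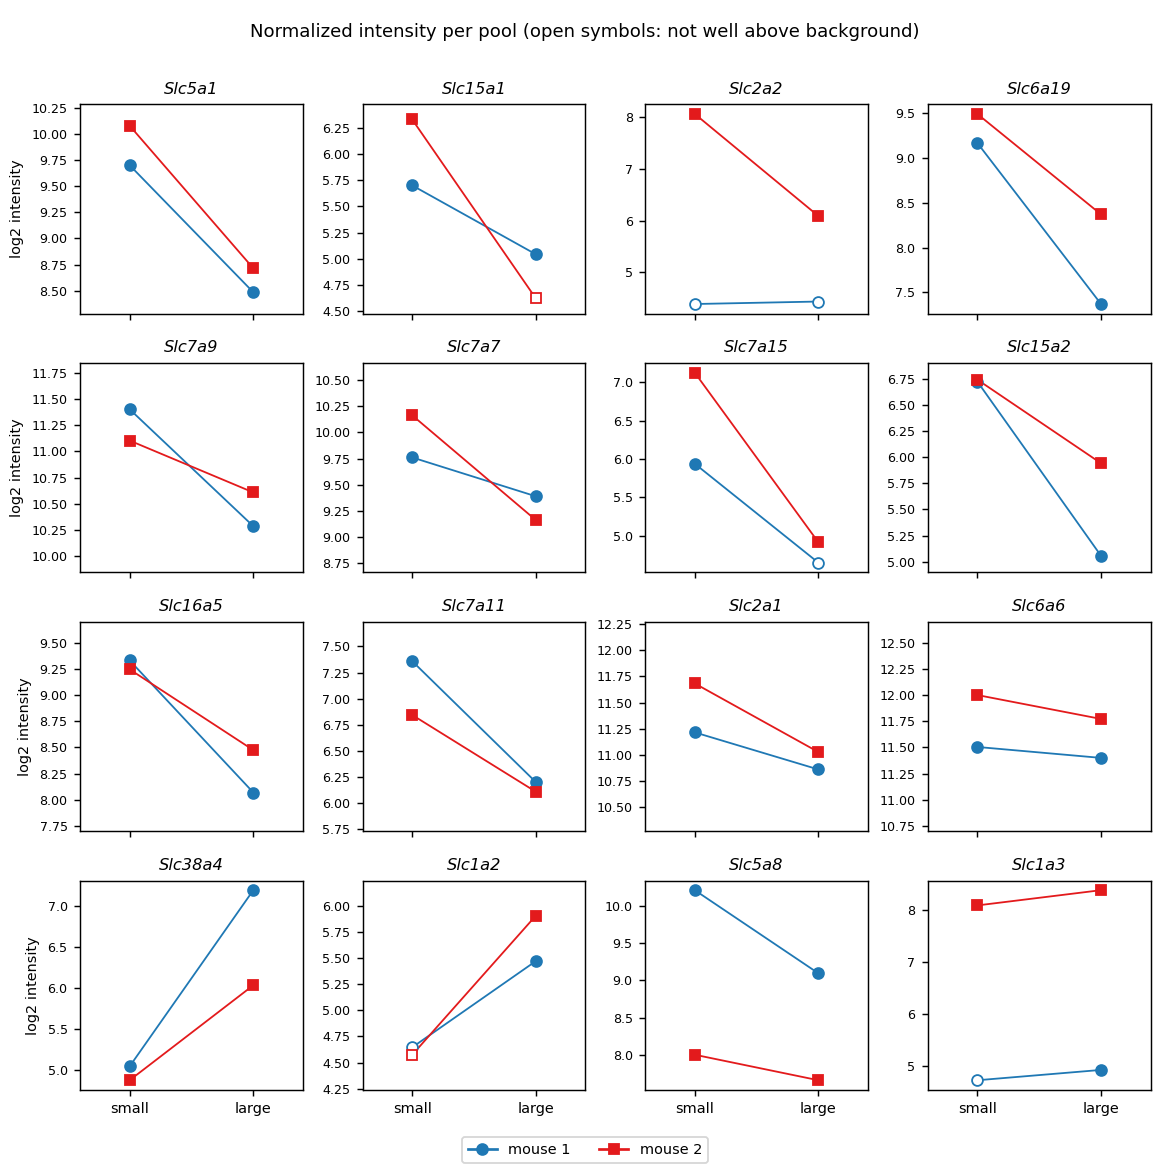
Log2 normalized intensity (y axis, its range set per panel) of 16 transporter genes by their brightest tested probe in small and large tumours, with 1 symbol per pool and a line joining the pools of a mouse; open symbols were not well above background. Lines slope down in both mice for Slc5a1, Slc6a19, Slc7a9, Slc7a7 and Slc7a15, and up for Slc38a4 and Slc1a2, while Slc5a8 and Slc1a3 lie apart between the mice.

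Members of the same families that carry other solutes differed in direction, and those with the lowest differences come first. Slc5a6 encodes the sodium-dependent carrier of biotin and pantothenate, and its bead signal was 494 in the small and 329.7 in the large pool of mouse 1, and 555 and 260.2 in those of mouse 2. Both large pools lay below both small pools (differences of -0.69 and -1.01; limma adjusted p = 0.603). Slc16a5, a member of the monocarboxylate carrier family, had a bead signal of 642 in the small and 295 in the large pool of mouse 1, and 725 and 391 in those of mouse 2. It differed by -1.26 (mouse 1) and -0.77 (mouse 2), and its dimmer probe, not well above background in either large pool, was at least 1.34-fold lower there. Slc16a6, of the same family, was lower in both mice by each of 3 probes. The 2 brighter ones had mean differences of -0.47 and -0.70, and the dimmest differed by -0.23 in mouse 1 and at most -2.17 in mouse 2, a bound, since that large pool was not well above background. Over the Slc16a prefix 7 of 11 tested probes were lower and 0 higher in both mice, beside 28.6% and 29.0% of all tested probes. The 7 include the 3 probes of Slc16a6 and both of Slc16a5, so they are not separate genes.

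Slc6a4 encodes the serotonin reuptake carrier, which enterocytes use to clear serotonin. Its levels were 6.55 and 5.90 in the small and large pools of mouse 1, and 7.66 and 6.79 in those of mouse 2, which gave differences of -0.65 and -0.88, while a second probe differed by 0.03 and -0.29. Slc6a8, the creatine carrier, had a bright probe with signals of 1797 in the small and 1405 in the large pool of mouse 1, and 3051 and 1727 in those of mouse 2, and differences of -0.30 and -0.83. Slc6a6, the taurine carrier, had the brightest probe of all members, with levels of 11.50 and 11.40 in the small and large pools of mouse 1, and 12.00 and 11.77 in those of mouse 2. Its small and large pools overlapped, and the differences were -0.10 and -0.23. A second, dimmer probe went the other way, with 0.21 in mouse 1 and at least 0.70 in mouse 2, where the small pool was not well above background, and a mean difference of 0.53.

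**Figure D3:**
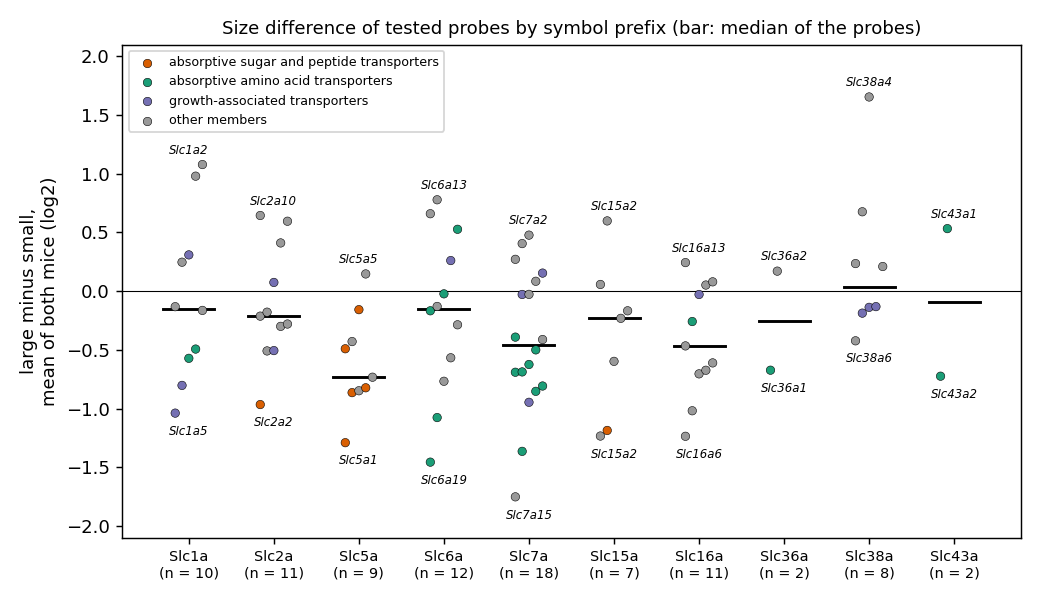
Large minus small (log2, mean of both mice) of the 90 tested probes by symbol prefix, with 1 point per probe, coloured by list, and a bar at the median. The median is lowest for Slc5a (-0.73), Slc16a (-0.47) and Slc7a (-0.46) and closest to 0 for Slc38a (0.04). The low Slc5a median comes from mouse 2, with medians of 0.0053 in mouse 1 and -1.01 in mouse 2. Of its 9 probes 4 were lower in mouse 1 and 8 in mouse 2, beside 48.0% and 51.7% of all tested probes. No Slc3a probe was tested.

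The transporters listed as growth-associated did not run one way. Of 14 listed genes 9 were tested, 4 of them lower and 2 higher in both mice, beside 26.7% and 30.7% of all genes. The medians of the 9 were 0.07 in mouse 1 and -0.23 in mouse 2, and none passed limma with or without the block. Slc2a1, the glucose carrier GLUT1, had bead signals of 2328 in the small and 1745 in the large pool of mouse 1, and 3450.4 and 2223 in those of mouse 2. Both large pools were below both small pools, and the differences were -0.35 and -0.66 (limma adjusted p = 0.697). Slc7a11 encodes xCT, the cystine-glutamate exchanger. Its brighter probe had levels of 7.36 and 6.20 in the small and large pools of mouse 1, and 6.84 and 6.11 in those of mouse 2 and differences of -1.16 and -0.73, while the dimmer probe gave -0.23 and 0.18. Slc1a5, the glutamine carrier ASCT2, was not well above background in either large pool by both tested probes, and the brighter was at least 1.62-fold lower there (limma adjusted p = 0.605). With no background correction the mean difference of that probe went from -1.04 to -0.60.

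Slc38a2, the system A carrier SNAT2, differed by -0.04 and -0.23 by its brightest probe, with mean differences of -0.19 to -0.13 over 3 probes. The glycine carrier Slc6a9 differed by 0.39 and 0.13, the arginine and neutral amino acid exchanger Slc7a6 by 0.11 and 0.20 and the neutral amino acid carrier Slc1a4 by 0.67 and -0.05. Slc2a3, the glucose carrier GLUT3, differed by 0.40 and -0.25. Slc16a3, the lactate exporter MCT4, was detected in mouse 2 only and differed by -0.12 there. Slc3a2, the heavy chain shared by several Slc7 carriers, was detected on 1 array, and Slc16a1 and Slc7a1 on none.

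Slc38a4 was the transporter with the highest difference. It encodes SNAT4, a sodium-coupled carrier of neutral amino acids known from liver and placenta. Its bead signal was 68.9 in the small and 181 in the large pool of mouse 1, and 69.5 and 97.9 in those of mouse 2. Both large pools lay above both small pools, with normalized levels of 4.96 ± 0.12 for small and 6.61 ± 0.82 for large pools (SD, n = 2 each), 3.15-fold higher in large tumours. The difference was 2.15 (mouse 1) and 1.16 (mouse 2); it did not pass limma without the block (adjusted p = 0.588) or with it (adjusted p = 0.0605). The mean difference of 1.65 became 1.00 with no background correction, so its size depended on that step. Slc1a2, the glutamate carrier GLT-1 known from glia, was not well above background in either small pool by both of its tested probes. Its brighter probe had bead signals of 59.7 in the small and 82.7 in the large pool of mouse 1, and 61.7 and 92.6 in those of mouse 2 and was at least 1.83-fold higher in large tumours (limma adjusted p = 0.588). The other was at least 1.56-fold higher.

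Several other members lay higher in both mice. The betaine and GABA carrier Slc6a12 differed by 0.48 and 0.84, the glucose carrier Slc2a8 by 0.44 and 0.75 and Slc2a10 by 0.27 and 0.56, the last with both probes in the same direction. Slc38a9, the lysosomal arginine-sensing carrier, differed by 0.14 and 0.33 by its brighter probe. Slc7a2, a cationic amino acid carrier, was not well above background in the small pool of mouse 1 and differed by 0.11 in mouse 2. Slc7a4, an orphan member of the cationic family, differed by 0.33 and 0.48. The mean differences of Slc6a12, Slc2a8 and Slc2a10 were 0.34, 0.38 and 0.26 with no background correction, against 0.66, 0.60 and 0.41. The GABA carrier Slc6a13 was at least 1.16 higher in the large pool of mouse 2 and differed by -0.07 in mouse 1. Slc7a3, a cationic amino acid carrier, was lower in the large pool of mouse 1 by at least 0.46 and higher by 1.09 in mouse 2.

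Several members differed more between the mice than between the sizes. At least 2-fold higher in mouse 2 in both sizes were 6 of the 90 probes (6.67%, beside 0.658% of all tested probes), which stand for Slc1a3, Slc2a2, Slc5a4b, Slc7a8 (both probes) and Slc16a10. Slc5a8 was the only 1 of the 90 probes at least 2-fold lower in mouse 2 in both sizes (1.11%, beside 0.945%). Slc1a3, the glutamate carrier GLAST, had bead signals of 61.5 in the small and 68.4 in the large pool of mouse 1, and 348 and 369 in those of mouse 2. Its small pool of mouse 1 was not well above background, and in large pools mouse 2 minus mouse 1 was 3.47. For Slc7a8 mouse 2 minus mouse 1 was 3.31 in small and 2.51 in large pools, and both pools of mouse 2 lay above both pools of mouse 1. Slc5a8, a sodium-coupled carrier of lactate and short-chain fatty acids, had levels of 10.22 and 9.10 in the small and large pools of mouse 1, and 8.0 and 7.65 in those of mouse 2. Its mouse 2 minus mouse 1 difference was -2.22 in small and -1.44 in large pools, larger than its size difference in either mouse. With the small pool of mouse 2 left out, the mean difference of Slc7a8 went from -0.85 to 0.80 and that of Slc2a2 from -0.97 to 0.88, since both large pools were then set against mouse 1 alone. The summed signal of the enterocyte markers, given further on, was also higher in mouse 2 at each size, and its part in these differences was not tested.

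**Figure D4:**
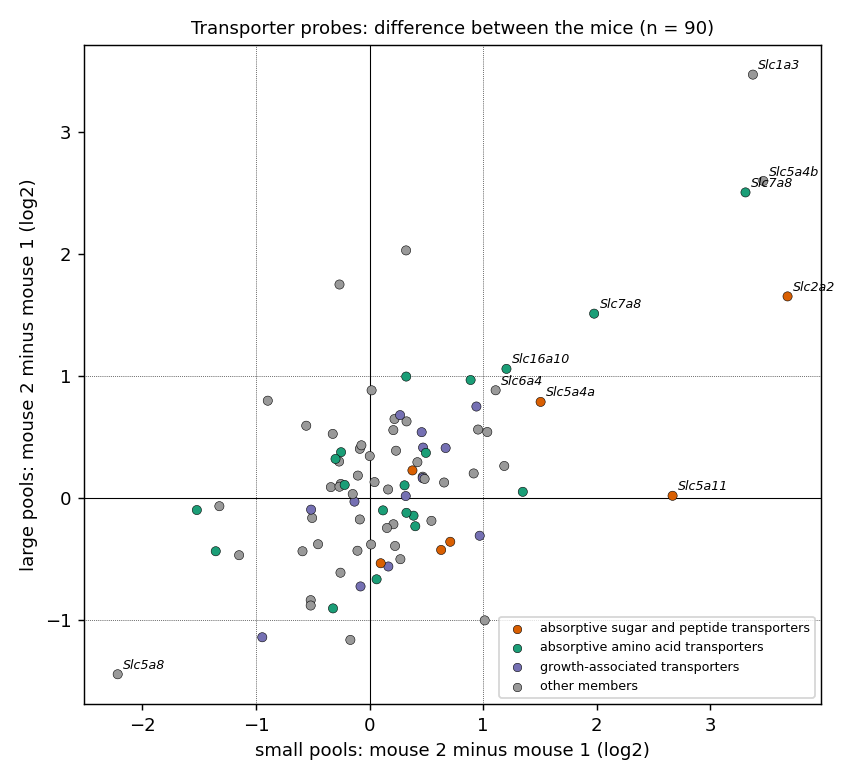
Mouse 2 minus mouse 1 (log2) of the 90 tested transporter probes in small pools (x axis) and large pools (y axis), coloured by list; dotted lines mark a 2-fold difference. Slc1a3, Slc5a4b, Slc7a8 and Slc2a2 lie at the upper right, and Slc5a8 alone lies at the lower left beyond both 2-fold lines; values are normalized levels and include pools not well above background.

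Probes of 1 gene are not replicates, but they show how far a value depends on the probe. Of 22 genes with several tested probes, all probes of 18 ran one way by their mean difference, 14 lower and 4 higher. The same count was not made over all genes of the array, so it does not show whether these shares are unusual. The other 4 were mixed (Slc15a2, Slc15a4, Slc6a6 and Slc7a3), of which Slc15a2 had the widest range, from -1.23 to 0.60. For Slc7a11 both probes were below 0, at -0.95 and -0.03.

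**Figure D5:**
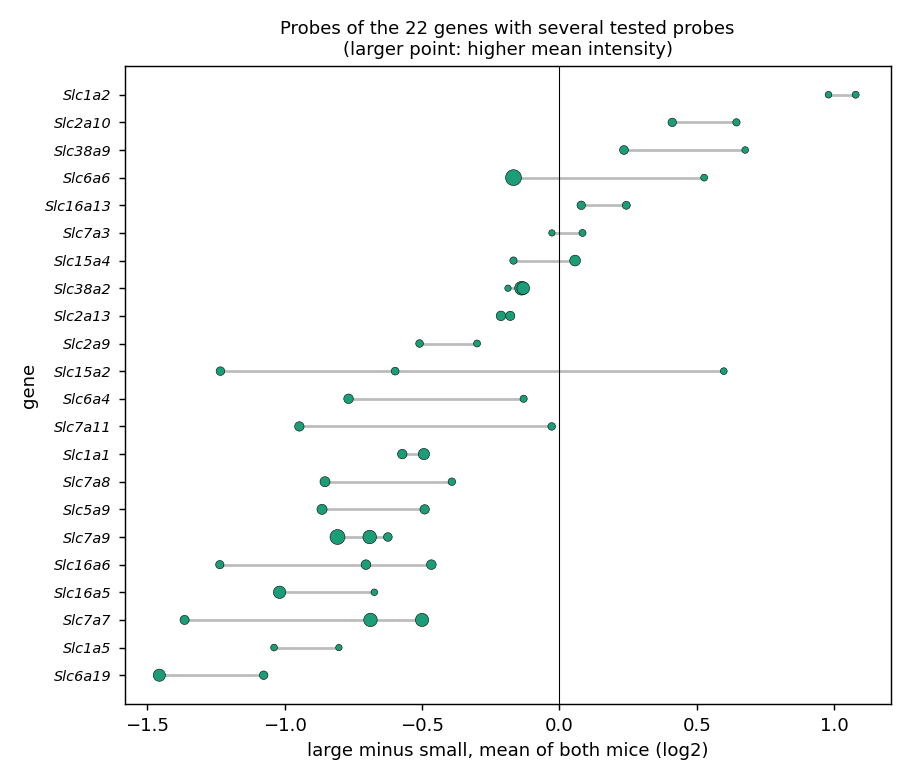
Large minus small (log2, mean of both mice, x axis) of each tested probe of the 22 genes with several tested probes (y axis), with point size rising with mean intensity and a grey line spanning the probes of a gene. Lines of Slc15a2, Slc6a6, Slc15a4 and Slc7a3 cross 0, and those of Slc6a19, Slc1a5 and Slc7a7 lie wholly below it.

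Other genes of nutrient digestion and handling were taken from lists. Their counts stand beside 26.7% of all tested genes lower and 30.7% higher in both mice. Of 20 brush border hydrolases and partners 18 were tested, 14 lower and 1 higher in both mice, with medians of -0.96 and -0.73, and none passed limma with or without the block. The peptidase gene Anpep differed by -1.37 and -1.42 (mouse 1 first), the trehalase gene Treh by -1.47 and -1.72, and Pdzk1, a scaffold of apical carriers, by -1.30 and -1.50. Of 13 genes of fructose and glucose handling 10 were tested, 6 lower and 1 higher in both mice, with medians of -0.15 and -0.25. Of 14 genes that respond to amino acid shortage, all tested, 1 was lower in each mouse and 3 were higher in each, with medians of 0.06 and 0.02. The other 10 went opposite ways in the mice, beside 42.5% of all tested genes. None of the genes on the last 2 lists passed limma with or without the block.

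Markers of cell types moved with the same comparison. The marker counts stand beside 26.7% of all tested genes lower and 30.7% higher in both mice. Of 12 enterocyte markers 9 were tested, 8 lower and 0 higher in both mice, of which Apoc3 passed limma with the block (adjusted p = 0.0355). Their summed bead signal was 47414 and 84780 in the small pools and 27423 and 54989 in the large pools of mouse 1 and mouse 2. Within each mouse it was lower in the large pool, as it was for Slc5a1, Slc6a19, Slc7a7 and Slc7a9, and its part in these differences was not tested. Fabp1 and Fabp2, which define enterocytes, had no probe above the detection limit, while Apoa1, Vil1 and Apob were detected on all 4. Of 9 fibroblast and matrix markers, all tested, 7 were higher in each mouse and 0 lower in each, with summed signals of 4737 to 8887 in small and 7803 to 13602 in large pools. Lum, a matrix proteoglycan gene, passed limma with the block (differences of 1.72 and 1.61; adjusted p = 0.0439). The part of these markers in the higher level of Slc38a4 was not tested. Of 6 neural and glial markers 3 were tested, and Sox10, S100b and Snap25 were not above the detection limit; their summed signal was 191 to 250.3 in small and 230.4 to 274 in large pools. Of 10 leukocyte markers 8 were tested, 4 lower and 2 higher in both mice. Their summed signal fell from 12008 in the small to 8850.1 in the large pool of mouse 1. In mouse 2 it rose from 6635 to 8683. The 2 higher ones were the neutrophil genes S100a8 (differences of 1.72 and 3.38) and S100a9 (1.67 and 3.34), which passed limma with the block (adjusted p = 0.0206 and 0.0218) and not without it (adjusted p = 0.569 and 0.516). The summed signals of 5 smooth muscle markers were 5119 to 12654 in small and 7612 to 13933 in large pools, and those of 4 endothelial markers 862 to 1006 and 1192 to 1278. For exocrine pancreas 1 of 7 markers was tested, with signals of 746 to 1175 in small and 1994 to 3579 in large pools, and for erythroid cells 3 of 4, with 13826 to 20154 and 19469 to 26052. Except for enterocytes and leukocytes, the summed signal of every list was higher in the large than in the small pool of each mouse. The part of these lists in the transporter differences was not tested.

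In the promoters of the transporters, short motifs were searched on both strands of RefSeq sequences from 250 bases before to 50 after each start site. Of the 63 tested genes 48 matched, with 67 promoters. ACGTG, the core of the hypoxia response element, was in 19 of 67 (28.4%), against 19.6% of all 32851 promoters of this length. In Slc5a1 it lies as CACGTG, which holds the motif on both strands in overlap. AGATAA, bound by GATA factors, was in 5 of 67 (7.46%, against 11.2% of all), TTTATGG, a form of the CDX2 motif, in 2 (2.99%, against 2.75%) and TGATGNAA, read by ATF4 with CEBP factors, in 4 (5.97%, against 3.97%). ACGTG was in 10 of the 31 promoters of genes lower in both mice (32.3%) and in 6 of the 21 of genes higher in both (28.6%). AGATAA was in 4 of the 31 (12.9%), namely in Slc7a7, Slc7a9 and Slc15a2. TTTATGG was in 2 of these 31 (6.45%), Slc2a6 and Slc7a15, the latter with a match on each strand. TGATGNAA was in 3 of these 31 (9.68%), in Slc7a11 and Slc7a7. Among the 21 promoters of genes higher in both mice, AGATAA was in 1 (4.76%), and TTTATGG and TGATGNAA were in 0. Some promoters of Slc7a7 overlap, so the same site there is counted in more than 1 promoter. TTTATTG was in 1 of the 67 promoters (1.49%, against 4.6%), and CAAAGTCCA for HNF4 (0.475% of all), the palindromic HNF1 motif (0.00913% of all) and CTTTGATC for TCF/LEF (0.938% of all) in none. The printed promoter of Slc6a19 holds none of these letters, and that of Slc38a4 holds AGATAA just after its start site.

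Where both pools of a mouse were detected, the other tested members differed by less than 2-fold. A bound does not say how large a difference was. Slc2a9, a urate carrier, lay lower in both mice by both probes (-0.69 and -0.32 by the brighter; -0.10 and a bound of at most -0.38 by the other), as did Slc38a6 (-0.59 and -0.25) and Slc2a6 (-0.49 and -0.06). Slc16a9 was not well above background in large tumours and was at least 1.43-fold lower there. Slc2a13, a proton-coupled carrier of inositol, differed by -0.55 and 0.13 and -0.26 and -0.10 by its probes. Slc7a14 and the proline carrier Slc6a7 were lower in both mice (-0.10 and -0.72, and -0.11 and -0.47), with the large pool of mouse 2 not well above background. The glutamate carrier Slc1a6 differed by -0.56 and 0.29, its relative Slc1a7 was not well above background in large tumours and at least 1.05-fold lower there, and Slc15a4, a lysosomal carrier, by -0.12 and 0.23. Slc16a13 differed by 0.28 and -0.12. Slc16a11 and Slc36a2 were detected in mouse 1 only and differed by 0.23 and 0.33 there. Higher in both mice were the iodide carrier Slc5a5 (0.19 and 0.10) and Slc38a10 (0.27 and 0.15).

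The remaining 36 gene symbols had no probe above the detection limit, and no difference is given for them; their probes say only that the signal was not well above background on more than 1 array. Slc7a6os, which the rule takes in by its symbol, is the opposite-strand neighbour of Slc7a6 and no transporter, and it differed by -0.01 and 0.56. A further 23 probes carry older names that RefSeq now gives to these families; the rule does not hold them and they were not used.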

How the data were processed

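RNA of 4 tumour pools (small and large, from 2 mice) was measured on Illumina mouse bead arrays. Bead signal intensity and detection p-values were exported by the authors without normalization or background subtraction (BSGX Version 3.2.6, per the file headers; BeadStudio, per the submitters' processing notes). The authors also deposited normalized intensity values by a method not given in the sources used here, used only as an alternative. Intensities were background-corrected and quantile normalized with limma's neqc (limma 3.58.1, R 4.3.3, offset 16) and put on a log2 scale; these log2 values were computed here from the deposited intensities. Probes with detection p under 0.05 on at least 2 of 4 arrays were tested. Large was compared with small by limma (lmFit, eBayes, two-sided, Benjamini-Hochberg over all 20214 tested probes). The code was checked on data simulated from the fitted limma model itself. That check cannot show how well the tests hold for the measured data. A second fit took the mouse as a block, with the pairing taken from the labels, which give the same animal for both pools; deviations from the size means correlated with a Pearson r of 0.216 within a mouse over the tested probes. The block left 1 residual degree of freedom per probe, beside a prior of 12.8 in that fit. Its p-values therefore rest mostly on the spread pooled over probes. A gene stands for its brightest tested probe. Where a pool was not well above background, a fold is a bound ("at least"), set against the higher of the probe's own level and the lowest level among detected probes of that array. The number of arrays limits the precision, and no slide or scan batch is given in the sources used here. Named genes were the tested members of the 3 transporter lists, the largest differences outside them in each direction, the members whose mice lay farthest apart and up to 3 others with the highest mean level; others were named to account for every tested member. The members and lists were chosen with earlier results of these data known. Alternatives covered background correction, normalization, the detection limit, the block and leaving out each pool.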

Additional observations from a re-analysis of the deposited data

How the results depend on the processing

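With 2 arrays per size, single differences carry wide errors. The median transporter difference (-0.24) was -0.17 on uncorrected signals, -0.17 at an offset of 50 and -0.044 without any detection limit, and -0.36 to -0.11 when 1 pool was left out. Probes lower in both mice went from 47 of 90 (52.2%) to 28 of 50 with the authors' normalized values, which hold fewer probes. Those higher in both went from 19 of 90 (21.1%) to 12 of 50 there. With detection required on all 4 arrays they were 12 of 59 (20.3%, beside 29.7%), and with no limit 41 of 167 (24.6%, beside 26.9%). The 6 probes at least 2-fold apart in both mice (5 lower, 1 higher) became 2 (2 lower, 0 higher) under each of 3 settings, namely the authors' values, an offset of 50, and uncorrected background. In mouse 1 alone, an alternative chosen after seeing the data, 33 probes were higher (36.7%, beside 52.0% of all tested probes) and 14 were at least 2-fold apart, 13 of them lower. For the 2-fold counts in mouse 1 no share over all probes was computed. Nor was one computed with the authors' values, an offset of 50 or uncorrected background. These counts therefore do not show whether transporters stood apart from other probes there. The split by direction was also added after seeing the data. With the replicate block (the mouse) 120 probes of the array passed, 1 of them a transporter, and the block changed no other transporter call. Median scaling gave 2 passing probes and leaving out 1 pool 0 to 70 (70 without the large pool of mouse 1, 19 without that of mouse 2), of which 0 were transporters. Under median scaling Slc2a3 turned to -0.028 and Slc15a4 to -0.013. Leaving out 1 pool turned the direction of these genes, given as lowest to highest: Slc15a4 -0.22 to 0.34, Slc16a10 -0.86 to 0.34, Slc16a3 -0.50 to 0.44, Slc1a1 -1.25 to 0.27, Slc2a2 -2.81 to 0.88, Slc2a3 -0.29 to 0.44, Slc36a1 -1.35 to 0.0021, Slc38a2 -0.71 to 0.43, Slc5a11 -2.16 to 0.51, Slc5a4a -0.91 to 0.60, Slc5a8 -1.84 to 0.38, Slc6a18 -0.18 to 0.13, Slc6a6 -0.42 to 0.082, Slc6a9 -0.074 to 0.60, Slc7a3 -0.79 to 0.96, Slc7a6 -0.12 to 0.43, Slc7a8 -2.51 to 0.80. Of 42 named genes 25 kept their direction under every alternative run. The genes named for the largest differences outside the lists were picked for the same sign in both mice, which favours a kept direction. The cause of the changes between settings was not tested.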
